A study of Mus musculus with 3 samples.

Results

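The 10 genes described here encode 5 matrix metalloproteinases (Mmp2, Mmp7, Mmp9, Mmp12 and Mmp14), 3 tissue inhibitors of metalloproteinases (Timp1, Timp2 and Timp3) and 2 enzymes that crosslink collagen and elastin (Lox and Loxl2). They were chosen by symbol among the 27998 genes of the files, and each symbol stood for 1 row. Their RNA was measured by droplet single-cell RNA sequencing in kidneys of 2 Aoah-/- mice, numbered 2 and 3, and of 1 WT mouse, numbered 3, all collected 14 days after folic acid (FA) and labelled as 6 to 8 weeks old. The Aoah-/- mice lack acyloxyacyl hydrolase, an enzyme that removes acyl chains from LPS, in all cells and not in the kidney alone. All 3 mice received FA, which injures the proximal tubule and is followed by fibrosis, so the comparison is between genotypes after injury, and no kidney without FA was analysed here. Each kidney was digested with collagenase and gave 1 library, and the WT group therefore has no replicate: differences are given as values with no test and no p-value.

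Matrix metalloproteinases are zinc enzymes that cut collagens, elastin, laminins and other proteins outside the cell. Most are secreted as inactive proenzymes, and the TIMPs bind and block the active forms. Lox and Loxl2 act in the other direction and join collagen and elastin chains into fibres that resist cleavage. In the injured kidney, such enzymes come from stromal cells, from leukocytes that enter the tissue and from the damaged tubules themselves.

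The promoters of the genes whose levels the results turn on are shown first, because these genes were read in unlike cells. The RefSeq promoter table held 6 of the 10 genes (Mmp7, Mmp12, Mmp14, Timp1, Timp2 and Timp3) with 8 start sites on GRCm38.p6. The last 250 bases before the start were searched on both strands for the AP-1 letters TGAGTCA. The same was done for the letters of a TATA motif, spelled TATAAA. The last search was for a GC box, which reads GGGCGG on 1 strand and CCGCCC on the other. These letters are found in 4.463%, 12.37% and 32.74% of the 32851 promoters in the table. Capitals mark the matches, and positions are counted back from the base before the start of transcription at -1.
Timp1 (chrX:20869916-20870165, plus strand): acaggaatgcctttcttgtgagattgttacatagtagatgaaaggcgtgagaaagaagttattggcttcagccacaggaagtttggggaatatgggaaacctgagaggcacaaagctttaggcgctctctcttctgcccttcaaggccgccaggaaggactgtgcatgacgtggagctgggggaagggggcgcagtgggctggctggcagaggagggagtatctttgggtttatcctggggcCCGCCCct
Timp3 (chr10:86300162-86300411, plus strand): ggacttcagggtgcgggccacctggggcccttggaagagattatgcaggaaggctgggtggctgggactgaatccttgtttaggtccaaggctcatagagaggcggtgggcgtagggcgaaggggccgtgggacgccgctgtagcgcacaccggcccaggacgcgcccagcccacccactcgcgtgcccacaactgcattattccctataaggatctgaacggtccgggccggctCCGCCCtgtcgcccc
Mmp7 (chr9:7691840-7692089, plus strand, first start site): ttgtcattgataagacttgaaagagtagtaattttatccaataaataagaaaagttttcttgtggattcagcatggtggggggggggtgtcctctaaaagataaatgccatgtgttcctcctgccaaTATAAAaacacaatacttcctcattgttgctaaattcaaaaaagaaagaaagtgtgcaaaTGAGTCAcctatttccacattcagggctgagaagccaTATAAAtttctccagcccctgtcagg
Mmp12 (chr9:7344147-7344396, plus strand, first start site): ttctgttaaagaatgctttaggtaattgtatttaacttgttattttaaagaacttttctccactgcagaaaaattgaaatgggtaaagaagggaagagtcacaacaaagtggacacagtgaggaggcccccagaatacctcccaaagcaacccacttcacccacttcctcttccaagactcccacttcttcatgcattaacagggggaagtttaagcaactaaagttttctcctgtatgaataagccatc
Mmp12 (chr9:7347124-7347373, plus strand, second start site): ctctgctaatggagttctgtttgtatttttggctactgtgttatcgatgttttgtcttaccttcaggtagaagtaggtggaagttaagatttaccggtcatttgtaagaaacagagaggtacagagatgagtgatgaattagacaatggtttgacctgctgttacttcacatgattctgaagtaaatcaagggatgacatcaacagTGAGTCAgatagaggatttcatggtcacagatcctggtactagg
The window of Mmp7 held TATA motifs at -123 and -26 and an AP-1 motif at -63, and was 38.0% G and C, against a median of 52.4% over all promoters. The second start site of Mmp7, not shown, had none of these motifs and was 53.2% G and C. Mmp12 had an AP-1 motif at -44 of its second start site, and none of these motifs before the first. The 3 inhibitors had a GC box near the start, at -8 in Timp1, -37 in Timp2 and -15 in Timp3, and Mmp14 had GC boxes at -19 and -13. These matches describe the letters only, and no binding was measured here.

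After barcodes with fewer than 200 genes or more than 50% mitochondrial UMIs were left out, 21368, 19692 and 18202 cells remained. Values here and below are given in the order mouse 2 and mouse 3 of the Aoah-/- group, then WT. A UMI, or unique molecular identifier, stands for 1 captured RNA molecule. The cells formed 32 clusters, of which 31 were named as 18 classes ("fibroblast-like" and so on) by marker genes, and in every class all of its markers that are in the files had UMIs in each library. Several clusters were nearly confined to 1 library: cluster 29 (fibroblast-like) held 10, 17 and 493 cells, cluster 22 (macrophage-like) 1392, 13 and 77, cluster 8 (injured tubule-like) 1, 76 and 0, and the unnamed cluster 3 held 202, 2396 and 95. Before any barcodes were left out, each pair of libraries shared 171 to 176 of them. Over all these barcodes, and not the kept cells alone, Aoah itself stood at 6.06, 5.68 and 15.3 of every 1000000 UMIs. Which part of the gene the knockout removes was not given in the sources used here.

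Levels are UMIs of the gene divided by the UMIs of the class in a library, times 1000000 (CPM), and their exact Poisson 95% intervals cover counting error only. A difference is the log2 ratio of the mean of the Aoah-/- libraries to the WT library, with the SD between both Aoah-/- libraries. A gene was called higher or lower where both Aoah-/- libraries stood at least 1.5-fold above or below the WT library after 1 CPM was added, if the class held at least 30 of its UMIs. Such a call has no replicate check on the WT side.

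Each of the 10 genes had a cell class in which its level was highest. Fibroblast-like cells led for Mmp2, Mmp14, Timp1, Timp2, Lox and Loxl2, injured tubule-like cells for Mmp7, granulocyte-like cells for Mmp9, dendritic-like cells for Mmp12 and endothelial-like cells for Timp3. For 8 of the 10, the range of the 3 libraries lay wholly above that of the second class. The exceptions were Mmp12, whose dendritic-like and macrophage-like ranges overlapped (332 to 392 and 138 to 419 CPM), and Timp2, whose fibroblast-like range of 484 to 2663 CPM reached into the macrophage-like range of 296 to 669.6 CPM. The value of 669.6 CPM was that of Aoah-/- mouse 2, where the macrophage-like cells included 1392 of cluster 22. The level fell off steeply below the leading class for Mmp9, from a mean of 1156 CPM in granulocyte-like cells to 33.1 CPM in monocyte-like cells, and for Mmp7, from 115 CPM in injured tubule-like cells to 4.48 CPM in endothelial-like cells, the latter almost all from Aoah-/- mouse 3 (0.202, 12.9 and 0.281 CPM). Timp3 was read in more classes, and stood at 3418 CPM in endothelial-like cells, 1951 CPM in PTEC-like cells (proximal tubule epithelial cells) and 945 CPM in fibroblast-like cells.

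**Figure D1:**
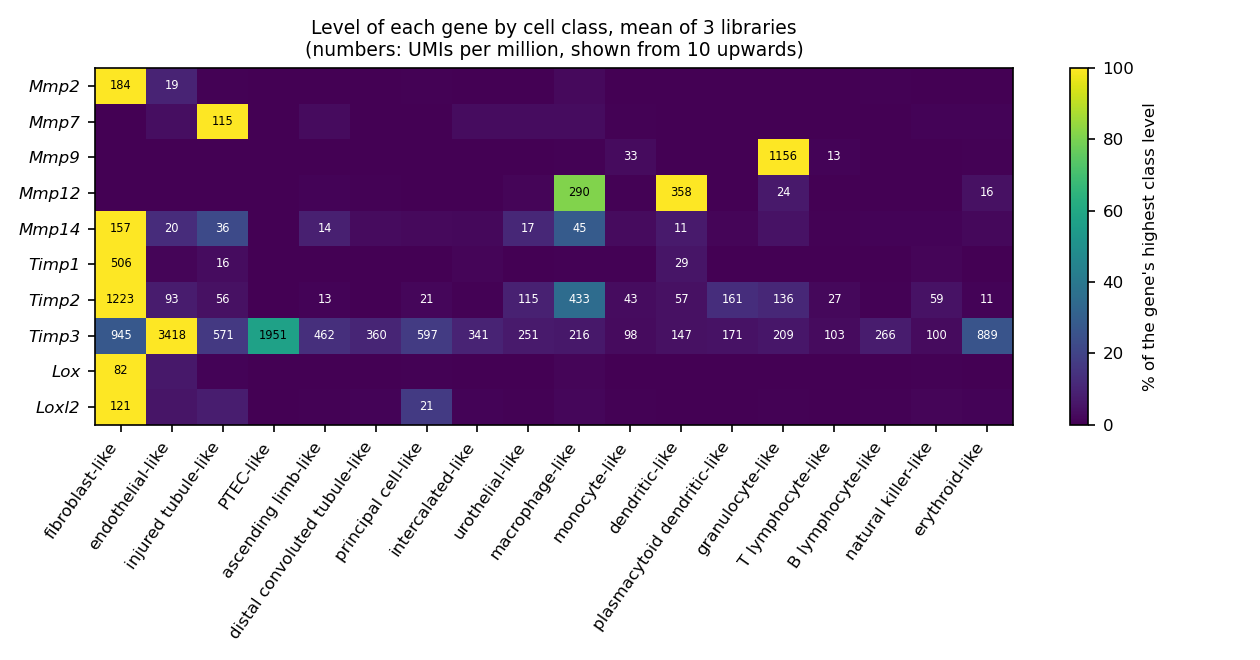
Heat map of the mean level of the 3 libraries for each gene (rows) in each of the 18 cell classes (columns). Colour gives the level as a percentage of the gene's highest class and numbers give CPM from 10 upwards. Fibroblast-like cells are at 100% for 6 genes, and Timp3 is the gene with the most classes above 20%.

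The class with the highest level was not always the main source of a gene's molecules. PTEC-like cells held 63.2% to 80.7% of the Timp3 UMIs. Macrophage-like cells held 63.2% to 68.3% of the Mmp12 UMIs although the level was highest in dendritic-like cells. For Mmp2 and Timp2, the main source differed between the libraries, while fibroblast-like cells were the largest source of Timp1 and Lox in all 3. Fibroblast-like cells held 31.2%, 44.2% and 91.1% of the Mmp2 UMIs and 2.09%, 9.90% and 77.5% of the Timp2 UMIs, where macrophage-like cells held 74.8%, 43.5% and 11.3%. In Aoah-/- mouse 2, 8551 of 13036 Timp2 UMIs lay in a macrophage-like subcluster led by Prg4, Saa3 and Slpi. It held 1392, 14 and 76 cells, and its Timp2 level was 947, 918 and 1012 CPM. In cluster 27, macrophage-like cells present in every library, Timp2 stood at 236, 299 and 283 CPM. Fibroblast-like cells made up 0.431%, 0.924% and 2.97% of the kept cells. Shares of this kind depend both on how many cells of each class a library held and on the level in each class.

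**Figure D2:**
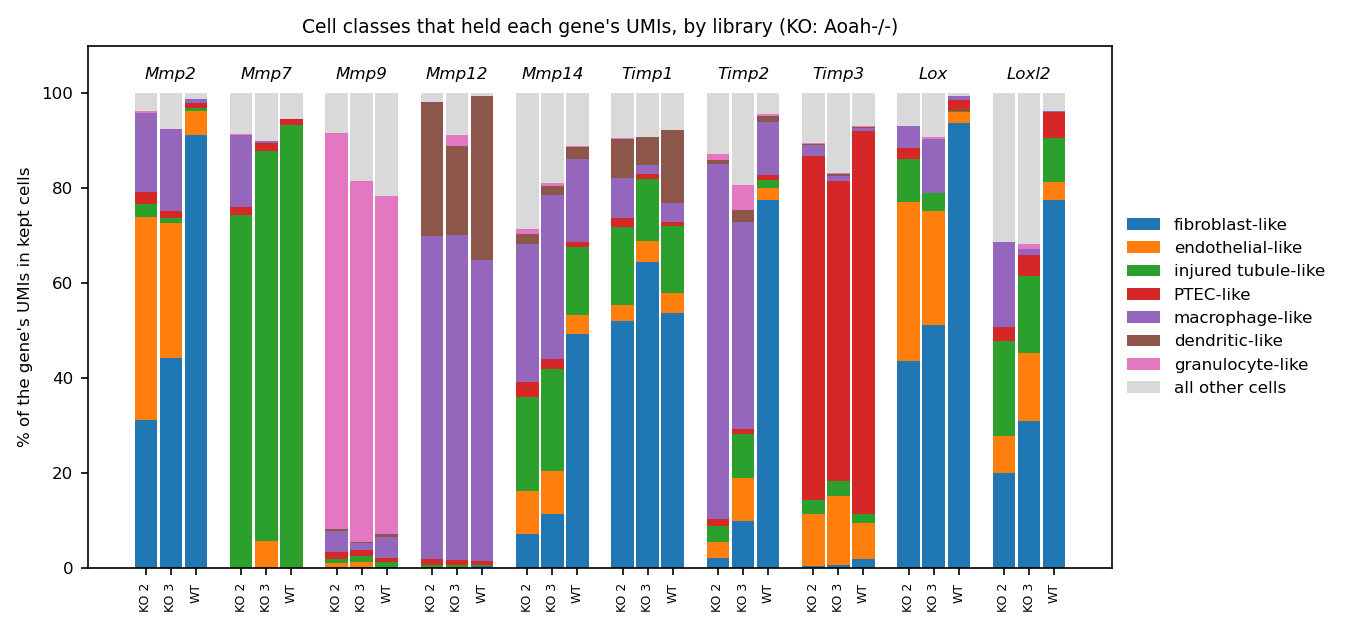
Share of each gene's UMIs in kept cells that came from 7 cell classes and from all other cells (stacked bars, percent), for each library (KO: Aoah-/-). The blue share of fibroblast-like cells is largest in the WT library for Mmp2, Mmp14, Timp2, Lox and Loxl2, and for Timp1 it lies between 52.0% and 64.5% in all 3.

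Timp1, which encodes an inhibitor of most secreted metalloproteinases and is widely used as a marker of fibrotic tissue, gave the most marked difference of the 10 genes in a leading class. In fibroblast-like cells it stood at 727, 729 and 62.8 CPM. Both Aoah-/- libraries were above the WT library, with intervals (656 to 804 and 681.5 to 778 CPM) far from that of WT (55.8 to 70.4 CPM). These intervals cover counting error only and not the spread between cells. A single cell held 119 of the 379, 193 of the 884 and 21 of the 294 Timp1 UMIs of the class. The log2 ratio was 3.53, with an SD between the Aoah-/- libraries of 0.00. Among all 10992 genes tested in this class, 12.8% were called higher and 10.9% lower, so calls were common here, and of the members tested in it 1 of 7 was called higher (Timp1) and 2 lower (Mmp2 and Timp2).

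The fibroblast-like class was made of different clusters in the 2 genotypes, and this sets how its values can be read. Cluster 28, led by Mgp, Tagln, Col3a1, Bgn and Rgs5, held 82, 165 and 47 cells, and its 10 leading genes had 3 fibroblast markers and 3 smooth muscle markers. Cluster 29, led by Dcn, Igfbp6, C3 and Pi16, held nearly all WT fibroblast-like cells. The comparison is therefore also given within cluster 28 alone, a choice made after seeing the data. The name of cluster 28 is not firm: at 4 other settings (10% highest doublet scores left out, Leiden resolution 2, at least 500 genes, at most 20% mitochondrial UMIs) its cells were not named fibroblast-like, and under 20 such cells were left in each Aoah-/- library.

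Within cluster 28, Timp1 stood at 807, 767 and 122 CPM, and the log2 ratio was 2.69 ± 0.05 (SD between the Aoah-/- libraries, n = 2). The WT interval was 88.4 to 165 CPM, below both Aoah-/- intervals, which began at 727.5 and 717 CPM. In this cluster 7.8% of 7727 genes were called higher and 6.44% lower, and Timp1 was the only one of the 7 members tested there that was called. Timp1 molecules were concentrated in few cells: 24 of 82, 72 of 165 and 8 of 47 cells had a UMI of it, and 3, 4 and 2 cells held at least 50% of the 375, 873 and 43 UMIs. The intervals of cluster 28 do not cover this spread between cells. After each fibroblast-like cell was thinned to 1000 UMIs, which left out 5, 0 and 4 cells, 14.9%, 17.6% and 4.48% had a Timp1 UMI (exact 95% intervals 8.20% to 24.2%, 12.3% to 23.9% and 2.89% to 6.59%; unthinned 30.4%, 41.8% and 22.6%), against 0.235%, 0.209% and 0.0922% of ascending limb-like, distal convoluted tubule-like and intercalated-like cells. Median depths were 4365 to 7636.5 and 5148 to 8197.5 UMIs. Markers of other cells also differed within cluster 28. The summed level of the 10 fibroblast markers was 4122, 5949 and 2520.0 CPM, of the 8 smooth muscle markers 7348, 4237 and 7290.0 CPM, of the 13 macrophage markers 1223, 1023 and 432 CPM (11, 12 and 7 of them with UMIs) and of the 12 injured tubule markers 11616, 14281 and 9259 CPM. Their part in the Timp1 difference was not tested.

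Timp2, an inhibitor that also takes part in the activation of pro-MMP2 at the cell surface, showed the opposite contrast over the whole class and none within cluster 28. In fibroblast-like cells it stood at 522, 484 and 2663 CPM, with both Aoah-/- libraries below the WT library and a log2 ratio of -2.40 ± 0.08 (SD, n = 2). Cluster 28 held 448, 464 and 446 CPM, with overlapping intervals and a log2 ratio of 0.03. Cluster 29 of the WT mouse stood at 2843 CPM (2793 to 2894) and held 12305 of the 12462 Timp2 UMIs of the WT class. The 10 and 17 Aoah-/- cells of cluster 29 stood at 1133 and 788 CPM, from 64 and 59 UMIs.

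Mmp2, the gelatinase that TIMP2 helps to activate, followed the same pattern. Its levels in fibroblast-like cells were 129, 154 and 268 CPM, and the log2 ratio was -0.92 ± 0.19 (SD, n = 2). Within cluster 28 they were 108, 141 and 102 CPM, with a log2 ratio of 0.28 ± 0.27 (SD, n = 2), and Mmp2 was not called. In cluster 29, Mmp2 was at 301, 361 and 281 CPM, the Aoah-/- values from 17 and 27 UMIs. At a finer resolution, cluster 29 split into Pi16-led cells and Upk3b cells that carry markers of the mesothelium, the kidney's outer lining. The Pi16-led cells numbered 9, 17 and 348 and the Upk3b cells 1, 0 and 145. In the WT mouse, Mmp2 stood at 459.6 CPM in the Pi16-led cells and at 2.96 CPM in the Upk3b cells. Timp2 was high in both (3012 and 2579.7 CPM). The Aoah-/- Mmp2 levels of 301 and 361 CPM thus come from almost only Pi16-led cells, and the WT level of 281 CPM from both kinds. These Aoah-/- levels lie below the 459.6 CPM of the WT Pi16-led cells, on 17 and 27 UMIs.

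Mmp14, a membrane-bound metalloproteinase that cuts collagen and activates pro-MMP2, differed by less than the call in the stroma. Fibroblast-like cells had 177, 172 and 123 CPM, a log2 ratio of 0.50 ± 0.02 (SD, n = 2) that did not reach the call. In cluster 28 the values were 176, 178 and 168 CPM, and their intervals overlapped. Outside the stroma, macrophage-like cells came next, at 25.3, 72.5 and 37.4 CPM. In cluster 27, the C1q macrophage-like cells present in every library, Mmp14 stood at 72.1, 76.2 and 52.1 CPM, a log2 ratio of 0.51 that was not called.

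The crosslinking enzymes were also short of the call in the stroma. Lox, which oxidises lysines of collagen and elastin, stood at 72.9, 86.6 and 85.9 CPM in fibroblast-like cells and at 73.2, 87.0 and 71.0 CPM in cluster 28. Loxl2, which acts on basement membrane collagen, stood at 163, 98.1 and 102 CPM and at 172, 102 and 114 CPM, and Aoah-/- mouse 2 was above the other 2 libraries in both. The log2 ratios in cluster 28 were 0.17 ± 0.18 and 0.27 ± 0.53 (SD, n = 2), and neither gene was called. With 25 Lox UMIs and 40 Loxl2 UMIs in the 47 WT cells of cluster 28, a difference under about the width of the intervals (46.0 to 105 CPM for Lox in WT) was not detectable at this depth.

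**Figure D3:**
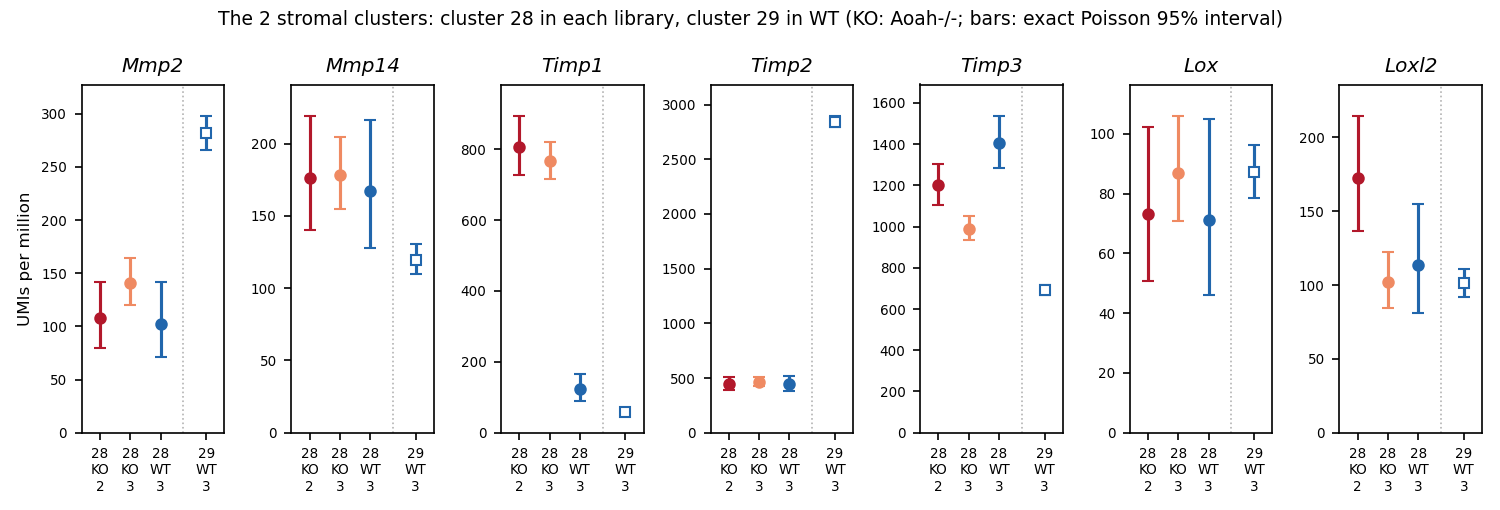
Levels (CPM) of the 7 members tested in cluster 28 for each library (filled circles) and in cluster 29 for the WT library (open squares), with exact Poisson 95% intervals as bars (KO: Aoah-/-). In cluster 28, Timp1 alone has both Aoah-/- intervals apart from that of WT (807 and 767 against 122 CPM), and Mmp2 and Timp2 are higher in cluster 29 than in any library of cluster 28.

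Mmp7, or matrilysin, is a small metalloproteinase of epithelial cells that injured tubules make. Injured tubule-like cells held 74.3%, 82.0% and 93.1% of its UMIs and had levels of 104, 144 and 97.7 CPM. Aoah-/- mouse 3 stood above the other 2 libraries, whose intervals (96.4 to 111 and 89.7 to 106 CPM) overlapped, and the log2 ratio of 0.34 ± 0.34 (SD, n = 2) was not called. In this class 4.43% of 12813 genes were called higher and 1.5% lower, and 1 of 8 members tested was called higher: Mmp12, with 32 UMIs in all, at 2.22, 1.40 and 0.531 CPM. Without cluster 8, the small cluster of Aoah-/- mouse 3, Mmp7 stood at 104, 127 and 97.7 CPM. Within cluster 8, all 189 Mmp7 UMIs lay in 21 cells, a subcluster led by Atp6v1g3, Rhbg and Il1f6 with 3548 CPM. Mmp7 was uneven among injured tubule-like cells of every library: 94 of 673, 146 of 960 and 35 of 431 cells had a UMI of it, and in the WT library 2 cells held at least 50% of the 552 UMIs. The thinned share was 5.75%, 7.50% and 3.07% (unthinned 14.0%, 15.2% and 8.12%), against 0.176%, 0.418% and 0.184% of ascending limb-like, distal convoluted tubule-like and intercalated-like cells, at median depths of 7295 to 11766 and 5148 to 8197.5 UMIs.

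Mmp9, the gelatinase of neutrophil granules, had its molecules mostly in granulocyte-like cells, which held 83.3%, 76.0% and 71.1% of them. In granulocyte-like cells it stood at 1179, 976 and 1312 CPM, with WT at the top and a log2 ratio of -0.28 ± 0.19 (SD, n = 2), which was not called. Thinned to 1000 UMIs, 55.5%, 50.8% and 60.0% of granulocyte-like cells had a Mmp9 UMI, against 0.589%, 0.855% and 1.74% of B and T lymphocyte-like cells, at median depths of 1616 to 2184.5 and 2573 to 2917 UMIs. Unthinned, the shares in granulocyte-like cells were 64.3%, 67.9% and 72.2%. Among the 7364 genes tested in granulocyte-like cells 17.8% were called higher and 2.68% lower, and of 5 members tested 3 were called higher: Timp3 at 238, 248 and 141 CPM, Mmp14 at 9.49, 8.54 and 4.48 CPM, and Mmp12 at 2.03, 70.8 and 0 CPM. The 3 genes belong to other cells by level. The Mmp12 call rests on 119 UMIs, which lay in 0.372%, 0.987% and 0% of the granulocyte-like cells, unthinned. In the same granulocyte-like cells the 16 PTEC markers summed to 3673, 3272 and 2397 CPM and the 13 macrophage markers to 781, 737 and 564 CPM, and their part in these calls was not tested.

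Mmp12, or macrophage metalloelastase, cuts elastin and was found in mononuclear phagocytes. Dendritic-like cells had 392, 332 and 351 CPM, with WT between the Aoah-/- libraries and a log2 ratio of 0.05 ± 0.17 (SD, n = 2). Mmp12 molecules lay in few of these cells, 50 of 388, 93 of 367 and 49 of 385. At least 50% of the 836, 1003 and 940 UMIs were held by 3, 14 and 5 cells. In this class 4.76% of 9629 genes were called higher and 0.997% lower, and none of the 5 members tested was called. In macrophage-like cells Mmp12 stood at 138, 419 and 313 CPM, and the clusters within this class differed in level. Cluster 27 had 404, 439 and 452 CPM, a log2 ratio of -0.10 ± 0.08 (SD, n = 2). Cluster 24, C1q-expressing cells (862, 126 and 1140, with median depths of 714.5, 2251 and 718 UMIs), had 99.7, 58.0 and 31.3 CPM from 84, 20 and 35 UMIs, a log2 ratio of 1.33 ± 0.55 (SD, n = 2) called higher where 11.9% of genes were. A subcluster of macrophage-like cells led by Gpnmb, Mfge8, Cd209f and Retnla, with 48, 73 and 39 cells, stood at 2122, 1657 and 1875 CPM and held 71.0%, 58.0% and 60.7% of the macrophage-like Mmp12 UMIs. Mmp12 was kept out of the genes used for clustering, so that its level did not define these cells.

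Timp3, an inhibitor that binds to the matrix and is made in the glomerulus and in vessels, was the most widespread member. Endothelial-like cells had 3182, 3084 and 3989 CPM, both Aoah-/- libraries below WT by a log2 ratio of -0.35 ± 0.03 (SD, n = 2), a gap larger than that between the Aoah-/- libraries but short of the call. The 2 endothelial-like clusters differed in level. Cluster 20, led by Tm4sf1 and Ptprb, stood at 4041, 4117 and 5073 CPM, and cluster 19, led by the capillary genes Fabp4 and Plvap, at 2208, 2179.8 and 2317 CPM. Fibroblast-like cells had 1117, 974 and 744 CPM, while their cluster 28 had 1201, 990.2 and 1406 CPM, so the order of the genotypes depended on cluster 29. In PTEC-like cells Timp3 was at 1865, 1984 and 2002 CPM, a log2 ratio of -0.06. The 16 PTEC markers summed to 21532, 21909 and 21177 CPM in these cells. They summed to 3673, 3272 and 2397 CPM in granulocyte-like cells, where Timp3 had a mean of 209 CPM. In dendritic-like cells they summed to 1225, 1183 and 1268 CPM, beside a Timp3 mean of 147 CPM. The part of RNA from PTECs in the Timp3 levels of other classes was not tested. Of endothelial-like cells thinned to 1000 UMIs, 83.6%, 81.7% and 85.4% had a Timp3 UMI, against 10.6%, 10.3% and 7.45% of B and T lymphocyte-like cells, at median depths of 3178 to 3708 and 2573 to 2917 UMIs (unthinned 92.1% to 96.4% and 18.2% to 23.6%). The Syn3 gene overlaps Timp3 on the opposite strand and had the class pattern most like it. Whether counting used the strand was not given in the sources used here, and any mixing of reads between the pair was not tested.

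**Figure D4:**
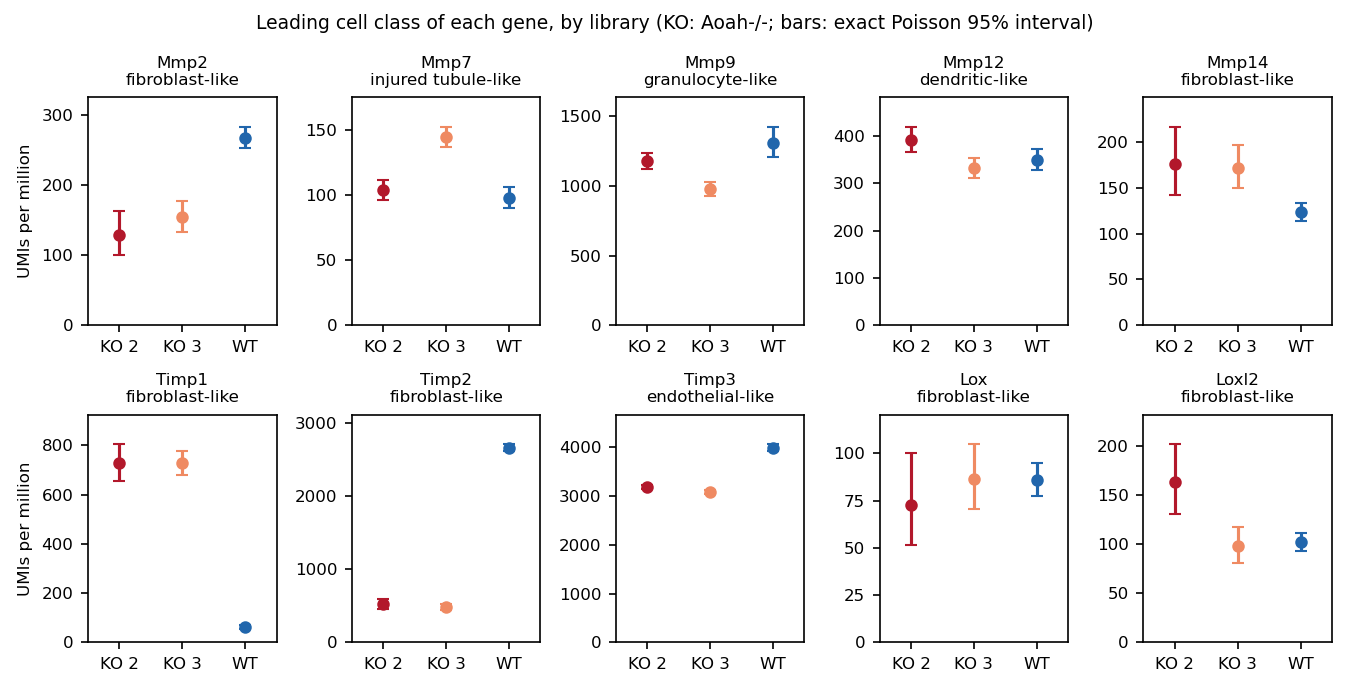
Level (CPM) of each gene in its leading cell class, for each library (Aoah-/- in dark and light red, WT in blue), with exact Poisson 95% intervals as bars (KO: Aoah-/-). Timp1 is higher and Mmp2 and Timp2 are lower in both Aoah-/- libraries than in WT. Mmp14 also stands higher (177 and 172 against 123 CPM) and Timp3 lower (3182 and 3084 against 3989 CPM), both short of the call. For Mmp7, Mmp9, Mmp12, Lox and Loxl2 at least 1 Aoah-/- interval overlaps that of WT.

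Endothelial-like cells gave calls for members that are led by other classes. Mmp14 stood at 23.2, 22.7 and 13.2 CPM, Lox at 5.85, 6.82 and 2.81 CPM and Mmp9 at 4.64, 3.06 and 0 CPM (23, 22 and 0 UMIs, and an upper 95% limit of 1.04 CPM in WT), so 3 of 9 members tested were called higher and none lower. In this class 5.04% of 12003 genes were called higher and 1.43% lower. Mmp14 was called higher in both endothelial-like clusters, at 14.6, 16.4 and 7.15 CPM in cluster 19 (where 6.48% of genes were) and 30.8, 29.8 and 17.2 CPM in cluster 20 (5.11%), and Lox was called in cluster 20 (10.3, 14.0 and 4.18 CPM). Counts were low, with 10 Lox UMIs and 47 Mmp14 UMIs in WT. The 10 granulocyte markers summed to 101, 288 and 22.2 CPM in endothelial-like cells (7, 8 and 5 of them with UMIs) and the 10 fibroblast markers to 13.1, 7.66 and 72.3 CPM, lower in the Aoah-/- libraries. The 8 smooth muscle markers went the other way, with 212, 50.4 and 18.6 CPM in cluster 20 (7, 7 and 4 of them with UMIs). The part of RNA from granulocytes in the Mmp9 call, and of RNA from smooth muscle cells in the Mmp14 and Lox calls, was not tested.

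Among the remaining classes, Loxl2 in principal cell-like cells of the collecting duct was at 37.0, 18.9 and 5.73 CPM, a log2 ratio of 2.29 ± 0.68 (SD, n = 2), called higher in a class where 2.82% of 10585 genes were. The WT value rests on 14 UMIs (interval 3.13 to 9.61 CPM). Timp2 was called higher at low levels in ascending limb-like cells (17.8, 14.8 and 6.27 CPM, where 5.73% of genes were called higher), monocyte-like cells (55.9, 44.6 and 27.1 CPM, 6.57%), erythroid-like cells (8.56, 20.7 and 4.77 CPM, 13.2%) and B lymphocyte-like cells (11.4, 7.71 and 3.19 CPM, 5.59%). Mmp9 was called higher in intercalated-like cells (2.22, 2.81 and 0.471 CPM, 2.79%) and lower in T lymphocyte-like cells (6.02, 12.1 and 21.5 CPM, where 1.66% of genes were called lower). Mmp12 was called higher in ascending limb-like cells, at 1.72, 6.61 and 0.298 CPM, and in distal convoluted tubule-like cells, at 1.145, 6.93 and 0.301 CPM (3.7%). Mmp7 was called higher in macrophage-like cells (10.4, 0.804 and 0 CPM, 4.54%), intercalated-like cells (9.38, 2.15 and 0 CPM) and urothelial-like cells (1.20, 9.73 and 0 CPM, 4.34%), with no UMI of it in these WT cells and a single Aoah-/- library well above the other in each. Mmp14 was called higher in PTEC-like cells (0.751, 0.731 and 0.147 CPM, 2.72%) and Timp3 in natural killer-like cells (131, 120 and 49.999 CPM, 5.02%). In the unnamed cluster 3, Mmp7 stood at 2.48, 6.84 and 12.8 CPM and Timp2 at 22.8, 20.2 and 12.0 CPM. The part of RNA from other cells in these values was not tested.

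Over all kept cells together, 3 members were called. Mmp9 stood at 15.8, 16.2 and 6.61 CPM, a log2 ratio of 1.27 ± 0.02 (SD, n = 2), called higher, while granulocyte-like cells held 1.12%, 1.26% and 0.358% of the UMIs. Mmp2 stood at 1.63, 3.25 and 11.0 CPM and Lox at 0.659, 1.57 and 3.44 CPM, called lower with log2 ratios of -2.18 ± 0.70 and -1.62 ± 0.89 (SD, n = 2), while fibroblast-like cells held 0.395%, 0.931% and 3.75% of the UMIs. Among all 16919 genes tested, 3.59% were called higher and 2.63% lower, against 1 and 2 of the 10 members.

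With every class set to the same share of UMIs in each library, the calls changed. The log2 ratio was -0.21 for Mmp9, -0.66 for Mmp2 and 0.11 for Lox, none of them called, while Timp1 was called higher at 14.95, 15.4 and 3.52 CPM, a log2 ratio of 2.11 ± 0.03 (SD, n = 2), against 0.87 ± 0.66 over all cells as they were. At equal shares 0.78% of genes were called higher and 1.11% lower. Equal class shares leave the clusters within a class as they were. The fibroblast-like class, which led for Timp1, had 82, 165 and 47 cells of cluster 28 and 10, 17 and 493 of cluster 29. The Timp1 call was lost when cells under 500 genes, over 20% mitochondrial UMIs or under a common lowest UMI total were left out (log2 ratios of 0.57, 0.91 and 0.69), and the cause was not tested.

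**Figure D5:**
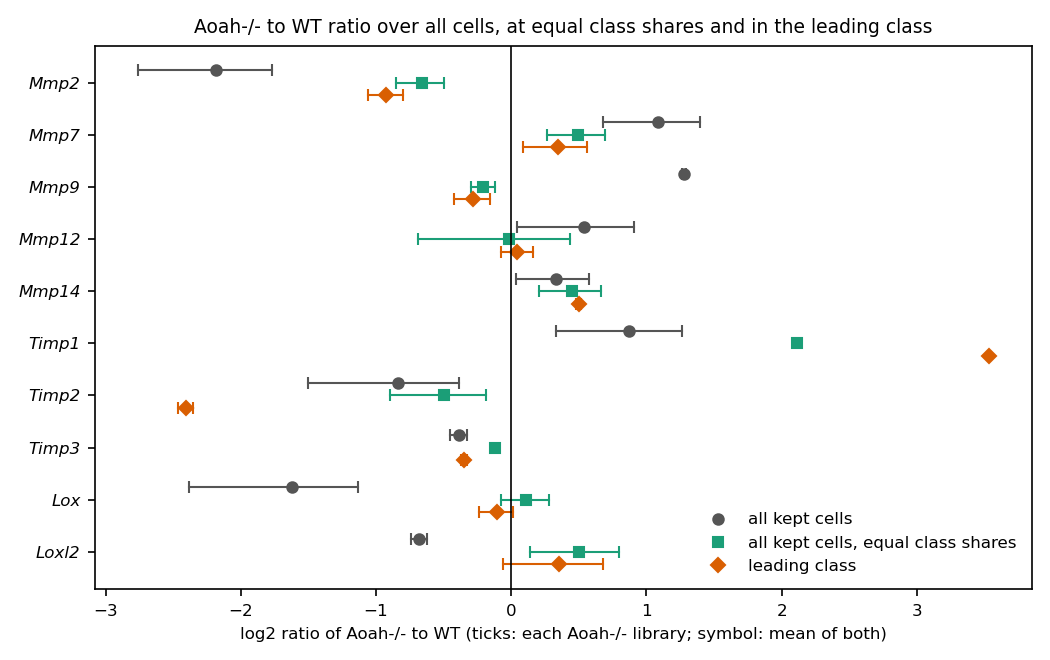
Log2 ratio of Aoah-/- to WT for each gene over all kept cells (grey circles), at equal class shares (green squares) and in the leading class (orange diamonds). Symbols are the mean of the Aoah-/- libraries and ticks the single libraries. Mmp9 moves from 1.27 to -0.21 and Lox from -1.62 to 0.11 once class shares are equal, and Timp1 moves from 0.87 to 2.11.

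Other genes of matrix turnover were read from 6 lists of 73 genes in all. In fibroblast-like cells the calls went both ways, with 12 of 58 list genes tested higher and 14 lower, against 12.8% and 10.9% of all genes there. Of 14 ADAM and ADAMTS proteases tested, 4 were higher and 4 lower, of 8 genes of the plasminogen system and other inhibitors 2 and 2, of 12 genes of collagen processing and crosslinking 2 and 2, of 4 other metalloproteinases 1 and 2, and of 14 matrix substrates 3 and 4, while 0 of 6 cathepsins were called. The largest ratios were those of Serpine2, an inhibitor of serine proteases (log2 ratio on CPM + 1 of 3.30), the protease gene Adam12 (3.20), the proteoglycan Dcn (-2.99), Col4a2 (2.45), the metalloproteinase Mmp11 (2.10) and Col4a1 (2.07).

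Within cluster 28, 15 of 53 list genes tested were called higher and 0 lower, against 7.8% and 6.44% of all genes there. Matrix substrates were higher for 6 of 14 genes, with Col1a1 at 837, 1423 and 537 CPM, Col3a1 at 915, 1894 and 435 CPM and Fn1 at 829, 796 and 269.9 CPM, and the median log2 ratio of the list was 0.45. Col1a1, Col1a2, Col3a1 and Dcn of this list are also fibroblast markers, and the substrates were not kept out of the clustering. Their values are therefore not separate from the marker sums of cluster 28 given above. Of the ADAM and ADAMTS proteases 3 of 12 were higher, of the collagen processing genes 3 of 12, of the other metalloproteinases 1 of 2 (Mmp11 at 23.7, 24.6 and 5.68 CPM), of the plasminogen system and other inhibitors 1 of 7 (Serpine2 at 579, 765 and 341 CPM) and of the cathepsins 1 of 6, and none was lower. Adam12 remained higher there (0.78), while the log2 ratios of Dcn, Col4a1 and Col4a2 were 0.07, -0.29 and -0.08. Over all kept cells the matrix substrates went the other way, with 7 of 14 lower, 0 higher and a median of -1.05, where fibroblast-like cells were fewer in the Aoah-/- libraries.

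In the remaining leading classes, 8 of 28 list genes tested were called higher and 0 lower in granulocyte-like cells (against 17.8% and 2.68% of all genes), 4 and 6 of 52 in endothelial-like cells (5.04% and 1.43%), 6 and 2 of 50 in injured tubule-like cells (4.43% and 1.5%) and 3 and 0 of 32 in dendritic-like cells (4.76% and 0.997%). Injured tubule-like cells had the cathepsin gene Ctss at 25.1, 28.7 and 3.72 CPM, Eln at 10.3, 4.74 and 1.24 CPM, and Dcn at 0.416, 0.323 and 22.3 CPM. In the same cells the fibroblast markers, Dcn among them, summed to 2.36, 3.67 and 38.2 CPM and the macrophage markers to 596, 706 and 411 CPM. Endothelial-like cells had the urokinase gene Plau at 12.1, 18.9 and 7.03 CPM and the inhibitors Cst3 at 1173, 1057 and 2133 CPM and Timp4 at 3.43, 1.95 and 7.32 CPM. Granulocyte-like cells had Ctsb at 841, 907 and 325 CPM, Adam9 at 17.6, 11.0 and 2.24 CPM and Col4a2 at 8.81, 12.8 and 2.24 CPM. Dendritic-like cells had Adamts10 at 13.1, 12.6 and 7.46 CPM. Dcn, Col1a1, Col1a2 and Col3a1 were lower in Aoah-/- endothelial-like cells too, beside the lower fibroblast marker sum given above. The part of RNA from other cells in the values of these classes was not tested.

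Genes with the class pattern most like that of each member were sought over 54 points, the 18 classes in 3 libraries, among 15300 genes. Points of 1 library share its preparation and depth, so these correlations (Pearson's r of log2 of CPM + 10) are descriptions. The nearest genes were C1qtnf2 for Mmp2 (r = 0.99), Il1f6, the interleukin 36 alpha gene, for Mmp7 (0.95), Retnlg for Mmp9 (0.97), Mgl2 for Mmp12 (0.92), P3h3 for Mmp14 (0.91), Aldh1a2 for Timp1 (0.96), Scarb2 for Timp2 (0.87), Syn3 for Timp3 (0.95), Col6a1 for Lox (0.99) and Serpina3n for Loxl2 (0.91). Cxcl5 and Ccl20, neutrophil and lymphocyte chemokines, came next for Mmp7 (0.95 and 0.94), and the neutrophil genes Cxcr2 and Asprv1 for Mmp9 (both 0.97). Within the members, Mmp2 and Lox were most alike (0.98), followed by Lox and Loxl2 (0.89).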

How the data were processed

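Kidney cells of 2 FA-treated Aoah-/- mice and 1 FA-treated WT mouse, 1 library each, were read as deposited UMI counts per gene and barcode. Per the file headers these counts came from cellranger 6.1.2, while the submitters' notes name Cell Ranger 3.1.0, STAR, Seurat 4.2.0 and mm10, and whether counting used the strand was not given in the sources used here. The 3 libraries held 23072 to 25516 barcodes and 158551992 to 167222984 UMIs, and no barcode of Aoah-/- mouse 3 had under 1672 UMIs, against 500 in the other libraries.

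Barcodes under 200 genes or over 50% mitochondrial UMIs were left out (59262 remained, with a median of 3357 to 3859 UMIs per library). With scanpy 1.11.5 (python 3.11.15, igraph 0.11.9), 2000 variable genes, 50 principal components, 15 neighbours and Leiden resolution 1 gave 32 clusters, which were named from marker lists. The members, the other protease lists, Aoah, Cd74 and MHC class II genes were kept out of the variable genes. A rule on leading markers was relaxed after the clusters were seen, so that a marker among the 10 leading genes was required only of clusters of low UMI total. Scrublet called 516, 0 and 246 doublets, which failed for 1 library, so doublets were kept and the 10% highest scores were left out as an alternative.

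Levels of a class were the summed raw UMIs of its cells in a library, times 1000000 over all their UMIs (scipy 1.17.1 for exact Poisson and Clopper-Pearson intervals, numpy 2.4.6). With 1 WT library no test was run. Calls were checked on simulated counts that held counting error only, with no spread between mice. For the fibroblast-like class, 76% of 2-fold changes were recovered and 1.82% of unchanged genes were called. The simulation cannot show how the calls hold where mice differ. For shares of cells with a UMI, cells were thinned to 1000 UMIs. Genes named were the members, list genes called in a leading class (up to 6 each by size of the log2 ratio on CPM + 1, with further called genes given as examples after their values were seen) and the genes most like each member. A gene that this rule names is not reported here. The members and lists were chosen with earlier results of these data known. Promoters came from a RefSeq table of GRCm38.p6.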

Additional observations from a re-analysis of the deposited data

Results flagged for a closer look

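Differences from the WT library that went in opposite directions in different classes, with both Aoah-/- libraries on 1 side of WT in each, were found for Mmp9 and Timp2. The difference between classes was not tested, nor was the part of RNA from other cells in these values. Mmp9 was lower in T lymphocyte-like cells (log2 ratio -1.25) and higher in intercalated-like cells (2.42) and in endothelial-like cells, where the Aoah-/- mean was 3.85 CPM and WT was at 0. Timp2 was lower in fibroblast-like cells (-2.40) and higher in B lymphocyte-like (1.58), ascending limb-like (1.38), erythroid-like (1.62) and monocyte-like cells (0.89). The fibroblast-like value of Timp2 was 0.03 within cluster 28.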

How the results depend on the processing

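Of 272 values of members under alternatives, 195 moved by at most the SD between the Aoah-/- libraries and 73 moved by more. The other 4, all called in the main analysis, changed sign, while 7 calls were lost and 28 gained. Sign changes of values not called there were counted by the size of the move. Loxl2 in fibroblast-like cells, for example, went from 0.35 to -0.06 without Aoah-/- mouse 2. The 4 reversals of called values came from choices made after seeing the data. Without clusters 3, 8, 22 and 29, the log2 ratio over all kept cells was 1.37 for Lox and 0.81 for Mmp2, and without cluster 29 the fibroblast-like ratio was 0.28 for Mmp2 and 0.031 for Timp2. Timp1 in fibroblast-like cells was called higher at each setting that gave a value, from 2.60 (common lowest UMI total) to 5.19 (each library clustered alone). These 2 settings did not keep the same cells: the class held 221, 433 and 475 and then 70, 137 and 357 cells, against 92, 182 and 540 in the main analysis. The other settings that gave a value kept the class labels of the main analysis. The 4 settings named in the report left under 20 fibroblast-like cells in each Aoah-/- library and gave no value for the 6 genes led by that class. Clustering each library alone gave none for Mmp12 in dendritic-like cells.

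The share of all genes called was counted in the main analysis only. The counts of members below, and the calls lost and gained above, therefore have no background beside them. With 1 Aoah-/- library left out, a call asked only the remaining library to pass. Over all kept cells, 1 member was called higher, and 2 were with at most 20% mitochondrial UMIs, at a common lowest UMI total or with the mean of per-cell CPM, 4 without clusters 3, 8, 22 and 29, and 1 to 4 with 1 Aoah-/- library left out (4 without replicate 2). The 2 called lower became 0 without those clusters, and 2 to 4 with 1 Aoah-/- library left out (4 without replicate 2). At equal class shares, the 1 called higher became 0 at at least 500 genes, at most 20% mitochondrial UMIs or a common lowest UMI total, 2 with each library clustered alone, and 2 to 3 with 1 Aoah-/- library left out. The 0 called lower there became 1 at at least 500 genes or with each library clustered alone, 3 at a common lowest UMI total, and 1 to 2 with 1 library left out. In the leading class, the 1 called higher was 1 to 2 with 1 Aoah-/- library left out (2 without replicate 3), and the 2 called lower became 5 at a common lowest UMI total and 0 without cluster 29. The leading class was the same for 4 members with the 10% highest Scrublet scores left out, at Leiden resolution 2 or at at least 500 genes, and for 3 at at most 20% mitochondrial UMIs. A leading class needed at least 20 cells in every library, which fibroblast-like cells did not have at these settings, so the genes they led had to change class. The cause of the other changes was not tested.

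No paired analysis was possible because the genotypes share only replicate number 3. The single WT library limits every difference, and the 47 WT cells of cluster 28 limit the stromal ones.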
